A study of Sus scrofa with 6 samples.

Results

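The genes ATP2A2, SLN, S100A1, PPP1R1A, ORAI1 and RCAN1, 6 genes that handle calcium or read it out as a signal in heart muscle, were followed in the left atria of pigs. They were chosen by name, as all probe sets whose only gene symbol in the array annotation is one of these 6. That gave 10 of the 23999 probe sets that are no controls, 4 for ATP2A2, 2 for RCAN1 and 1 for each of the other genes, and 6 of the 6765 genes with a symbol of their own. All 10 passed the filter on dim probe sets. The genes were picked with their values on these arrays already known, so their differences between groups are given as a description, with standard errors and no p-value.

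Each animal was a male Lanyu miniature pig, 18 months old, and gave 1 array of total RNA from the left atrium, with 2 animals in each of 3 groups. MRV animals had mitral regurgitation, the leak of blood from ventricle back to atrium, made surgically as a hole of 2.8 mm in the valve's posterior leaflet. They also received valsartan, which blocks the angiotensin II type I receptor, in a daily dose of 3.43 mg/kg that began 1 week ahead of the operation. MR animals had the same lesion without the drug, and both lesioned groups were killed 12 months after surgery. NC animals were normal controls of the same age, with no operation recorded for them, so regurgitation and surgery cannot be told apart in comparisons with NC. Values are intensities in array units on a linear scale, normalized between arrays before deposit, and the number of arrays limits their precision. In whole-tissue RNA, fewer cells of a type and less RNA per cell cannot be told apart.

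In heart muscle cells calcium is released from the sarcoplasmic reticulum to start each contraction and is pumped back by SERCA2, the product of ATP2A2. Sarcolipin, from SLN, is a small membrane protein that inhibits this pump and within the heart is found mainly in atria. S100A1 is a calcium sensor that binds the pump and the ryanodine receptor and raises calcium cycling, while PPP1R1A encodes an inhibitor of protein phosphatase 1, the enzyme that removes phosphate from phospholamban and so opposes protein kinase A. ORAI1 forms the pore of the store-operated calcium channel of the surface membrane. RCAN1 binds and restrains calcineurin, the calcium-activated phosphatase that sends NFAT transcription factors to the nucleus, and in mammalian hearts one RCAN1 transcript is itself a target of that pathway.

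The arrays had medians from 90.1 to 93.1. The brightest of the 8 atrial markers with a probe set were MYL4 and NPPA. NPPA, the atrial natriuretic peptide, read from 18414 to 20170. MYL4, the atrial essential myosin light chain, read from 21034 to 21842. KCNJ3 of that list was below the filter, from 46.8 to 60.8. Of the 7 tested, 2 were higher and 1, GJA5, was lower in MRV than in MR without overlap. Among all tested probe sets these shares were 18.8% and 23.6%. These readings do not measure ventricular RNA. The 3' actin control divided by the 5' one, a sign of RNA degradation when high, gave 2.30 and 1.87 in MRV, 1.44 and 1.70 in MR, and 1.61 and 1.91 in NC, so it was higher in MRV than in MR without overlap. The same ratio of the GAPDH control was 1.53 and 1.55 in MRV, 1.53 and 1.57 in MR, and 1.56 and 1.59 in NC. It overlapped between MR and each other group, and was slightly lower in MRV than in NC without overlap. The 28S ribosomal RNA control read 341 and 559 in MRV, 187 and 280 in MR, and 117 and 468 in NC. Its MRV arrays lay above both MR arrays and overlapped NC. Over all 14400 tested probe sets, limma called 1 in MR minus NC (ASNS, asparagine synthetase, lower in MR), 0 in MRV minus MR and 0 in MRV minus NC at an adjusted p below 0.05, while 579, 1048 and 762 had an unadjusted p below 0.05 in the same order.

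RCAN1 and S100A1 had the widest differences among the 6 genes. Both read higher in MR than in MRV and in NC, with no overlap between MR and either other group. PPP1R1A read lowest in MRV and highest in NC, ORAI1 read lowest in MRV, and the brightest ATP2A2 probe set read nearly alike on all 6 arrays. SLN was set apart by 1 low array, MR1. The plot of the 6 genes by array shows these patterns, and the plot of log2 differences gives their sizes with errors.

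**Figure D1:**
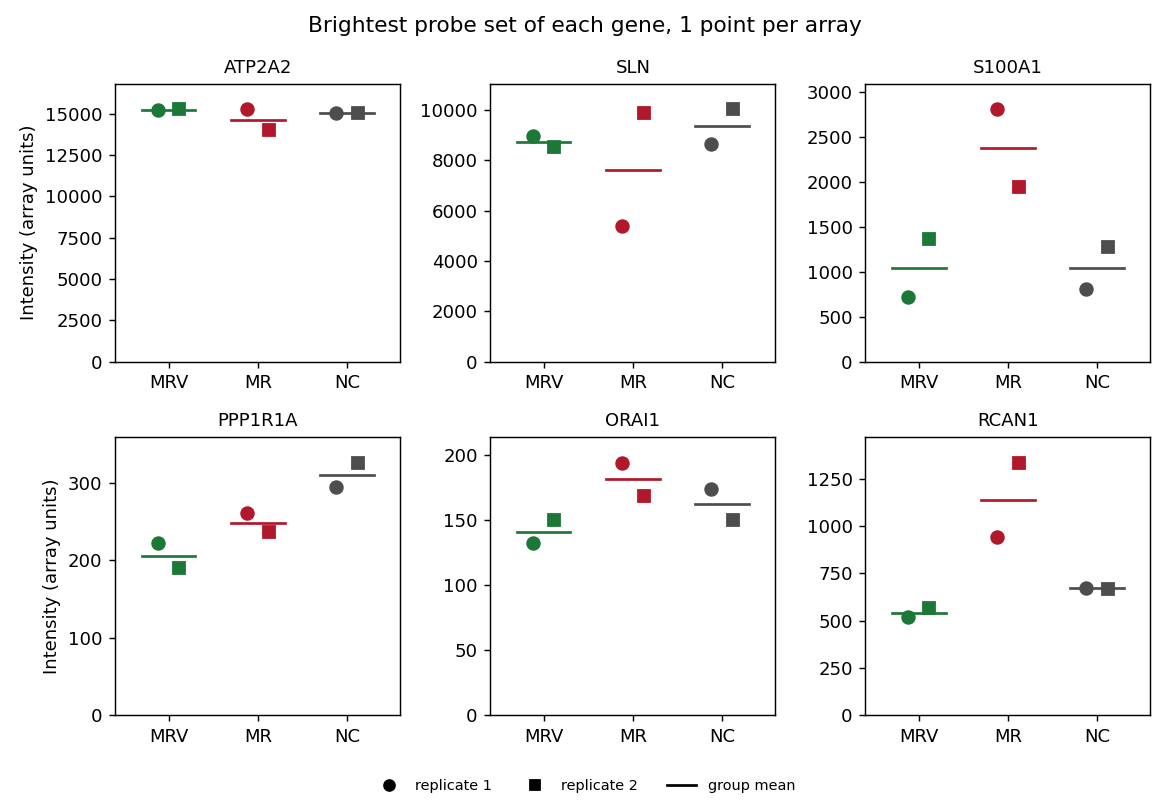
Intensity in array units (linear axis from 0) of the brightest probe set of each gene in MRV, MR and NC atria, with 1 point per array and a line at the mean of 2 arrays. Both MR points of S100A1 and RCAN1 lie above all MRV and NC points, PPP1R1A steps up between MRV, MR and NC, and the lowest SLN point is MR1 at 5369.

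The pump gene ATP2A2 was at the top of the scale. Its brightest probe set read 15207 and 15277 in MRV, 15279 and 13975 in MR, and 15010 and 15002 in NC, brighter than 99.9% of probe sets. The groups differed by no more than the 2 MR arrays did between themselves: the log2 difference was 0.06 for MRV minus MR (SE 0.10) and -0.04 for MR minus NC (SE 0.10). MRV read above NC without overlap, yet by only 1.57% of the NC mean, a log2 difference of 0.02 (SE 0.10).

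The other 3 ATP2A2 probe sets were far dimmer and did not run alike. The second brightest read 540 and 537 in MRV, 508 and 417 in MR, and 577 and 450.2 in NC. The third read 499 and 548 in MRV, 483 and 386 in MR, and 550.1 and 407 in NC. In both, MRV lay above MR without overlap, by log2 differences of 0.22 (SE 0.16) and 0.27 (SE 0.19), and the NC arrays spanned a wider range than either. The dimmest ran the other way: it read 83.6 and 56.3 in MRV, 129 and 105 in MR, and 117 and 154 in NC. Here both MRV arrays lay below all others, with log2 differences of -0.64 for MRV minus MR and -0.83 for MRV minus NC (SE 0.21 each). The mean over the 4 probe sets differed by -0.12 in MR minus NC, -0.02 in MRV minus MR and -0.15 in MRV minus NC, so the sign of both comparisons with MRV depends on the probe set. The annotation does not say which transcripts each probe set reads.

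**Figure D2:**
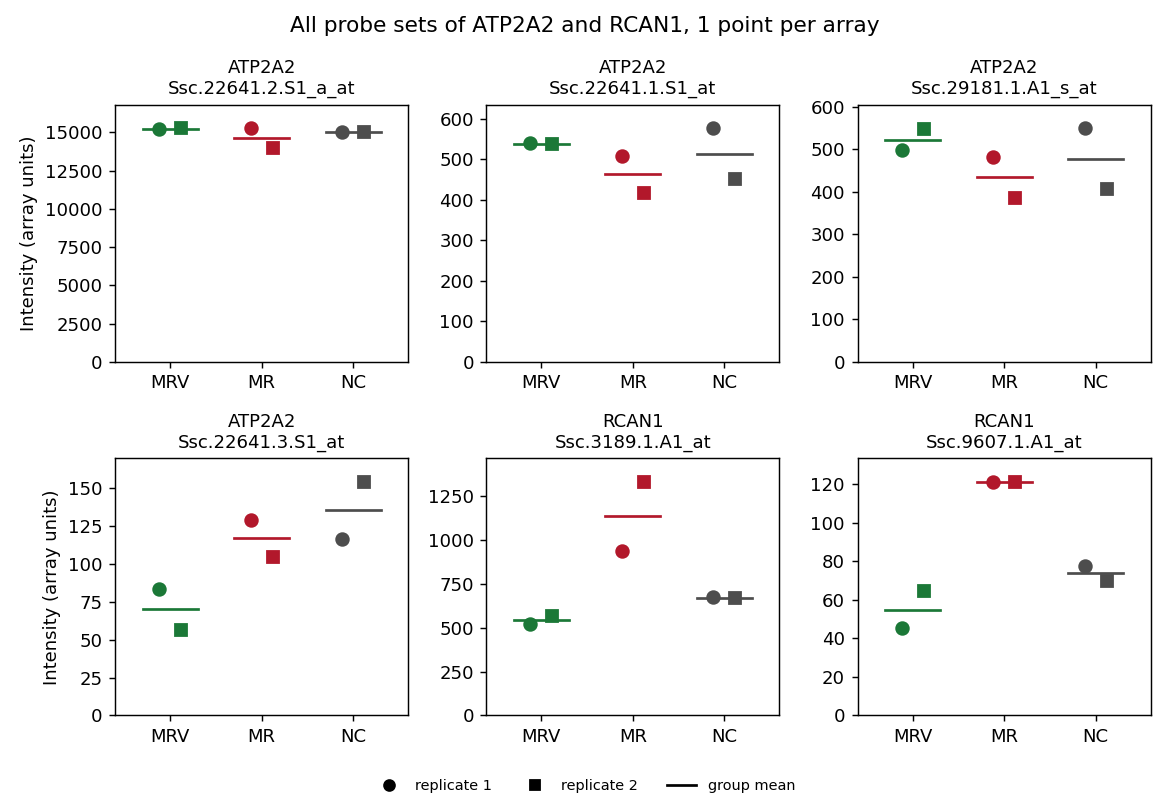
Intensity in array units (linear axes from 0, each with its own scale) of the 4 probe sets of ATP2A2 and the 2 of RCAN1, with 1 point per array and a line at the mean of 2 arrays. The dimmest ATP2A2 probe set is lowest in MRV while the others are not, and both RCAN1 probe sets order the groups as MR over NC over MRV.

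SLN, the inhibitor of the pump, read 8949 and 8530 in MRV, 5369 and 9877 in MR, and 8660 and 10033 in NC. All 3 groups overlapped, and the gap between the 2 MR arrays was wider than any difference between group means. The log2 difference was 0.26 for MRV minus MR, -0.36 for MR minus NC and -0.09 for MRV minus NC (SE 0.28 each). Without MR1 the first 2 turned sign, to -0.18 and 0.08, and without MR2 they were 0.70 and -0.79. PLN, phospholamban, the other small inhibitor of the pump, showed no such low array: it read 10826 and 10728 in MRV, 10972 and 10204 in MR, and 10568 and 10242 in NC.

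The sensor gene S100A1 read 725 and 1361 in MRV, 2812 and 1947 in MR, and 812 and 1277 in NC. Both MR arrays were above all 4 others, while MRV and NC covered almost the same range. The MR mean was 2.28 times the NC mean, a log2 difference of 1.19 for MR minus NC, and the log2 difference for MRV minus MR was -1.22 (SE 0.37 each). MRV and NC means were 1043 ± 450 and 1044 ± 329 (SD, n = 2 each), a log2 difference of -0.04 (SE 0.37). Of the 14400 tested probe sets, 34 had a larger absolute difference in MR minus NC, and 91 had one in MRV minus MR. The gene was picked with these values known, so its rank is a description only.

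MYL2, the regulatory myosin light chain of ventricular muscle, was high on the same arrays. It read 152 and 954 in MRV, 10693 and 2318 in MR, and 203 and 325 in NC. MR1 was the highest array for MYL2 and S100A1 and the lowest for SLN, and MRV1 was the lowest for MYL2 and S100A1. TNNT1, troponin T of slow skeletal muscle, read 323 and 957 in MRV, 2421 and 2724 in MR, and 497 and 996 in NC. The other 3 tested genes of the skeletal and slow muscle list did not follow it: CKM, muscle creatine kinase, was higher in MRV than in MR and lower in MR than in NC without overlap, and TNNI1 and TNNI2 overlapped in every comparison. S100A1, MYL2 and TNNT1 were all higher on MRV2 than on MRV1 and on NC2 than on NC1. Within MR they parted, with S100A1 and MYL2 higher on MR1 and TNNT1 higher on MR2. The share of all genes with such an order of arrays was not counted, so nothing is read from it. Without MR1, the array with the most MYL2, S100A1 differed by 0.92 in MR minus NC and by -0.96 in MRV minus MR.

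Of 9 ventricular markers, 6 had a probe set, and 2 of them, MYL2 and MYL3, were higher in MR than in NC without overlap, and both were lower in MRV than in MR, where 26.8% and 42.4% of all tested probe sets did not overlap. The summed level of the 6 was 34946 and 33576 in MRV, 46512 and 39162 in MR, and 35012 and 36696 in NC, with MR above the others without overlap. The gap between MR and NC rested on MYL2: the other 5 summed to 34794 and 32622 in MRV, 35818 and 36844 in MR, and 34809 and 36371 in NC, and MR overlapped NC. MYL3, the ventricular essential myosin light chain, read 8476 and 8316 in MRV, 10583 and 10329 in MR, and 8584 and 10061 in NC. MYH7, the slow myosin heavy chain, was bright everywhere, from 20478 to 21652, and the transcription factor genes HAND1 and HEY2 were dim, from 59.5 to 123 and from 67.3 to 98.2. FHL2, a LIM protein gene, ranged from 3648 to 5416 and overlapped between all groups. No marker was at 0, and IRX4, XDH and LRRC10 were not measured under a symbol of their own. The part of ventricular or slow muscle RNA in the S100A1 and SLN values was not tested.

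**Figure D3:**
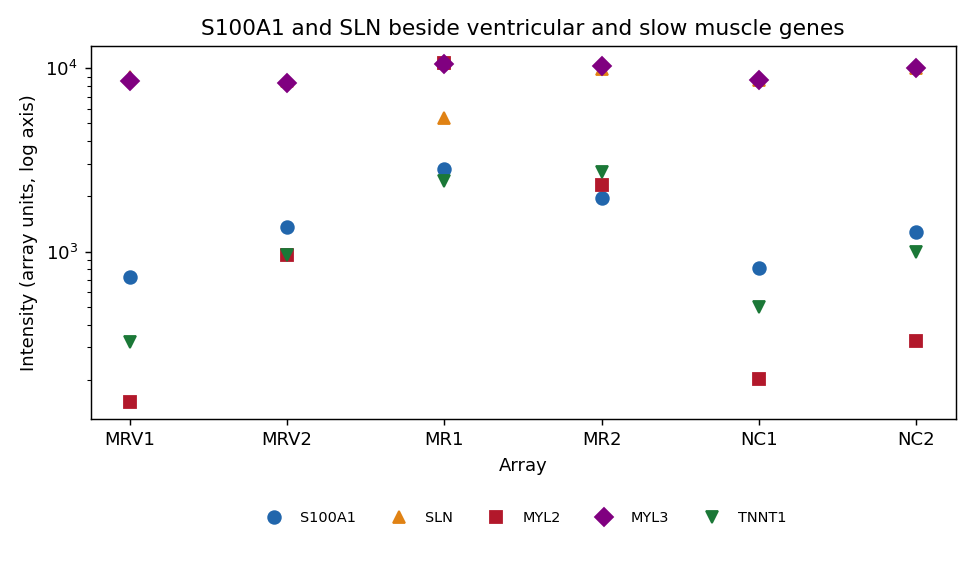
Intensity in array units (log axis) of S100A1, SLN, the ventricular genes MYL2 and MYL3 and the slow muscle gene TNNT1 on each of the 6 arrays, 1 point per gene and array. On MR1, MYL2 reaches 10693, S100A1 its highest value of 2812 and SLN its lowest of 5369.

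PPP1R1A, the phosphatase inhibitor, read 222 and 190 in MRV, 261 and 236 in MR, and 294 and 326 in NC. No group overlapped another, and the order was NC over MR over MRV. The widest step was MRV minus NC, a log2 difference of -0.56 (SE 0.13), with an MRV mean of 206 ± 23.0 against an NC mean of 310.1 ± 22.5 (SD, n = 2 each). MR minus NC was -0.30 and MRV minus MR was -0.26 (SE 0.13 each). Since no group overlapped another, leaving out 1 array could not change a sign. With 1 array left out, MRV minus NC lay between -0.66 and -0.45 and MR minus NC between -0.37 and -0.23. MRV minus MR was less steady, at -0.15 without MRV2 and -0.36 without MRV1.

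ORAI1, the channel pore, was the dimmest of the 6 by its brightest probe set, at 132 and 149.7 in MRV, 194 and 168 in MR, and 174 and 150.1 in NC. MRV was below MR without overlap, with a log2 difference of -0.33 (SE 0.13). MRV was also below NC, but its higher array nearly met the lower NC array, and the log2 difference was -0.18 (SE 0.13). MR and NC overlapped, with a log2 difference of 0.15 (SE 0.13). Without MR1 or NC2 that difference was 0.05, and without MR2 or NC1 it was 0.24. MRV minus NC was -0.10 without MRV1, -0.26 without MRV2, -0.08 without NC1 and -0.28 without NC2. With the actin control ratio added to the fit as a covariate, MRV minus MR was -0.06.

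RCAN1, the calcineurin regulator, read 521 and 565 in MRV, 941 and 1335 in MR, and 674 and 669 in NC on its brighter probe set. The 3 groups did not overlap, with MR highest and MRV lowest. The MR mean of 1138 ± 278 was 1.69 times the NC mean of 672 ± 3.18, and the MRV mean of 543 ± 31.1 was 0.477 times the MR mean (SD, n = 2 each). On the log2 scale MR minus NC was 0.73, MRV minus MR was -1.03 and MRV minus NC was -0.30 (SE 0.18 each). Of the tested probe sets, 1.28% had a larger absolute difference in MR minus NC and 1.12% in MRV minus MR, ranks of a gene picked with its values known.

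The second RCAN1 probe set was dimmer and gave the same order. It read 45.2 and 64.5 in MRV, 121.3 and 121.1 in MR, and 77.5 and 69.9 in NC, again with no overlap between groups. Its log2 differences were 0.61 for MR minus NC, -0.97 for MRV minus MR and -0.35 for MRV minus NC (SE 0.15 each). The brighter probe set varied between the 2 MR arrays, while the dimmer one read nearly the same on both. NPPB, the B-type natriuretic peptide gene that stretched heart muscle induces, was also highest in MR, at 4076 and 4644 in MRV, 8081 and 8253 in MR, and 4510 and 4095 in NC, but its MRV and NC arrays overlapped.

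**Figure D4:**
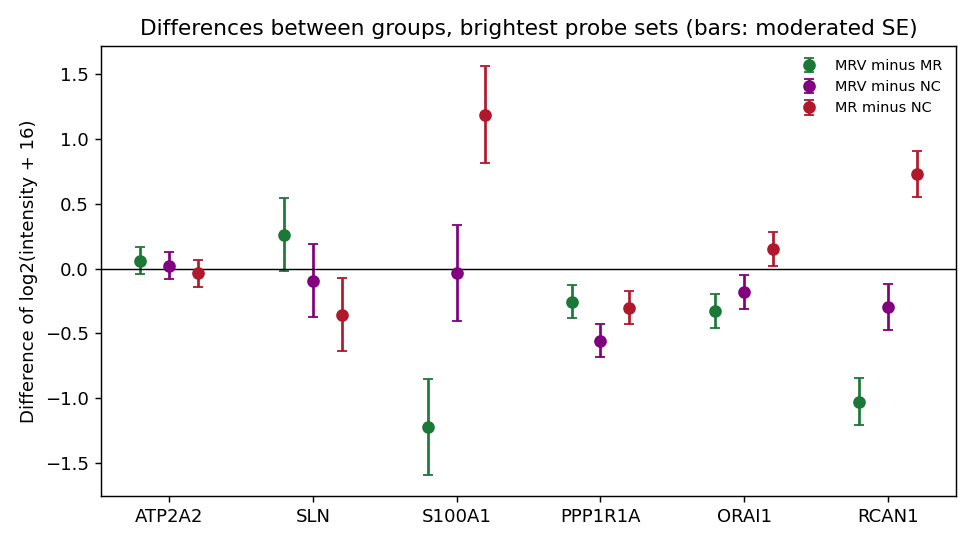
Differences between groups in log2(intensity + 16) for the brightest probe set of each gene, with bars of 1 moderated standard error and a line at 0. S100A1 and RCAN1 have MR minus NC above 0 and MRV minus MR below 0, PPP1R1A is below 0 in all 3 comparisons, and ATP2A2 lies nearest to 0, with its farthest value at 0.06.

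Over the 10 probe sets, 3 were higher and 1 lower in MR than in NC without overlap, 2 higher and 6 lower in MRV than in MR, and 1 higher and 5 lower in MRV than in NC. Among all tested probe sets, 26.8% did not overlap in MR minus NC, 42.4% in MRV minus MR and 33.2% in MRV minus NC. By direction, 14.3% were higher and 12.5% lower in MR than in NC, 18.8% higher and 23.6% lower in MRV than in MR, and 15% higher and 18.1% lower in MRV than in NC. The probe sets of a gene share their target, and the genes were picked for their values, so nothing is read from these counts. The MR arrays serve in 2 comparisons, as MR minus NC and as MRV minus MR, so a high MR pair enters both with opposite sign.

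The genes around these 6 were taken from 7 lists of calcium handling and phosphatase signalling, which hold 184 other genes in all. Of these, 96 had a probe set and 78 passed the filter. In limma, 0 of the 78 passed an adjusted p of 0.05 in any comparison, against a background of 0.00694% called in MR minus NC and 0% in MRV minus MR and in MRV minus NC. Those with an unadjusted p below 0.05 numbered 11 (14.1%) in MRV minus MR, 2 (2.56%) in MR minus NC and 2 (2.56%) in MRV minus NC, beside 7.88%, 4.49% and 5.62% of all 5408 genes tested. The median log2 difference of the 78 was -0.03 in MRV minus MR, -0.01 in MR minus NC and -0.04 in MRV minus NC, beside medians of -0.03, 0.01 and -0.02 over all 5408 genes tested.

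**Figure D5:**
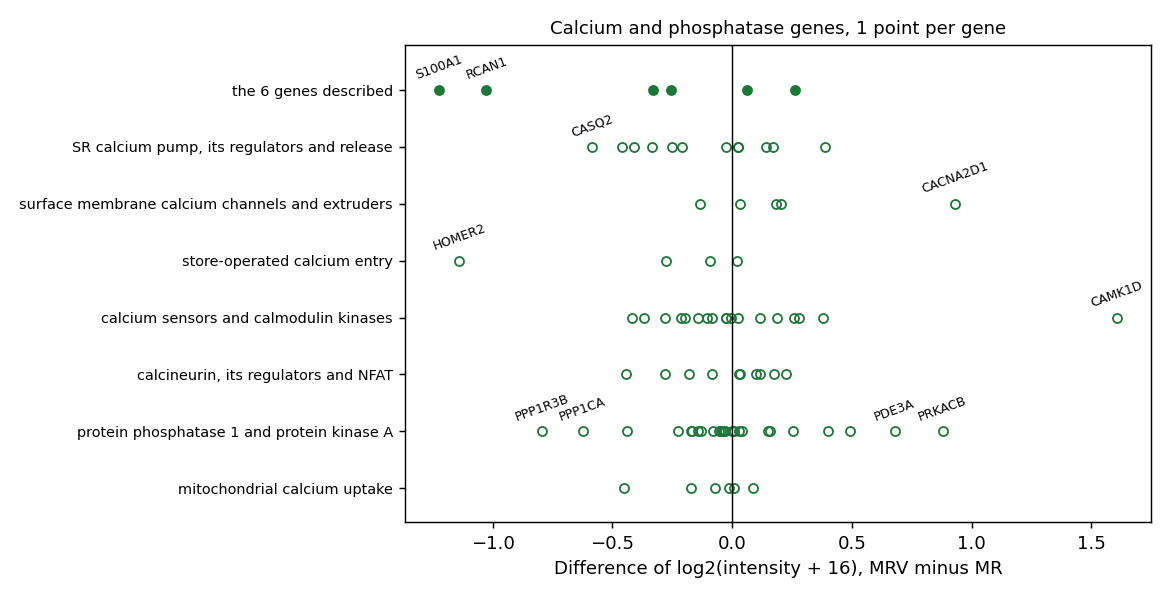
Differences in log2(intensity + 16), MRV minus MR, of the 6 genes (filled) and of the tested genes of the 7 lists (open), 1 point per gene, with names where the difference is at least 0.5 either way. Most listed genes lie near 0, HOMER2 lies at -1.14 beside S100A1 and RCAN1, and CAMK1D at 1.61 is farthest to the right.

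Of the calcineurin list, 10 of 35 genes were tested, 6 above and 4 below 0 in MRV minus MR and 2 above and 8 below 0 in MR minus NC, with 0 called by limma (smallest adjusted p = 0.531 in MRV minus MR and 0.999955 in MR minus NC) and an unadjusted p below 0.05 for 2 and 1, beside 7.88% and 4.49% of all genes tested. Those were LMCD1, a LIM protein gene, in both comparisons and CIB1, a calcium-binding protein gene, in MRV minus MR. Both had the RCAN1 order, MR over NC over MRV without overlap, on their brightest probe set. The share of all genes with that order was not counted, so nothing is read from it. Of all genes tested, 43.7% did not overlap in MRV minus MR, 28.2% in MR minus NC and 35.1% in MRV minus NC. LMCD1 read 299 and 313 in MRV, 401 and 441 in MR, and 348 and 322 in NC, a log2 difference of -0.44 in MRV minus MR (limma adjusted p = 0.531). Its dimmer probe set overlapped between MRV and NC. CIB1 read 292 and 329 in MRV, 373 and 388 in MR, and 351 and 349 in NC, a log2 difference of -0.28 in MRV minus MR (limma adjusted p = 0.668). The 3 tested catalytic subunit genes of calcineurin did not have the RCAN1 order. PPP3CA read 1575 and 1182 in MRV, 1108 and 1310 in MR, and 1306 and 1521 in NC, with overlap throughout, though the dimmest of its 3 probe sets was higher in MRV than in MR and lower in MR than in NC without overlap. PPP3CB read 2009 and 1700 in MRV, 1763 and 1680 in MR, and 1891 and 1800 in NC, with MR below NC and MRV overlapping both. Its 2 dimmer probe sets differed by 0.37 and -0.33 in MRV minus MR. PPP3CC read 580 and 657 in MRV, 738 and 666 in MR, and 718 and 720.4 in NC, and MR overlapped NC. RCAN3, a relative of RCAN1, was dim, at 71.7 and 60.2 in MRV, 75.5 and 65.9 in MR, and 82.6 and 62.6 in NC, and its groups overlapped. Its other probe set was lower in MRV than in MR without overlap, at a log2 difference of -0.39.

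Store-operated entry was covered by 4 tested genes besides ORAI1. HOMER2, a scaffold protein gene of the Homer family, read 618 and 1005 in MRV, 1571 and 1964 in MR, and 1019 and 1332 in NC. Like RCAN1 it did not overlap between any groups, with MR highest and MRV lowest, and its log2 difference was -1.14 in MRV minus MR (SE 0.27, limma adjusted p = 0.506) and 0.59 in MR minus NC (SE 0.27, limma adjusted p = 0.999955). A second HOMER2 probe set differed by -1.25 and 0.66, while the third differed by 0.04 and 0.19. STIM2, a calcium sensor of the store, read 71.7 and 77.7 in MRV, 106 and 83.2 in MR, and 95.8 and 89.7 in NC. ORAI3, the channel subunit related to ORAI1, read 72.3 and 83.9 in MRV, 93.6 and 75.5 in MR, and 98.4 and 70.5 in NC, with overlap in every comparison.

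Of the 18 tested calcium sensors and calmodulin kinases, 7 were above and 11 below 0 in MRV minus MR, with a median of -0.03 and 0 called by limma (4, or 22.2%, with an unadjusted p below 0.05, beside 7.88% of all genes). CAMK1D, a calmodulin-dependent kinase gene, had the reverse order: it read 552 and 366 in MRV, 175 and 106 in MR, and 332 and 261 in NC. MR was lowest and MRV highest without overlap, and the log2 difference was 1.61 in MRV minus MR (SE 0.29, limma adjusted p = 0.394) and -1.02 in MR minus NC (SE 0.29, limma adjusted p = 0.999955). Among the other S100 genes, S100B, which marks glia, read 391 and 519 in MRV, 613 and 601 in MR, and 536 and 482 in NC. S100A10 read 1328 and 1685 in MRV, 1846 and 2025 in MR, and 2005 and 1445 in NC. Both were lower in MRV than in MR without overlap, but by log2 differences of -0.42 and -0.37. Of the 18 tested genes of the list, 5 were higher and 7 lower in MRV than in MR without overlap. That is 66.7% of the list, beside 43.7% of all genes tested.

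Around the phosphatase inhibitor PPP1R1A, 25 genes of protein phosphatase 1 and protein kinase A were tested, with 10 above and 15 below 0 in MRV minus MR, a median of -0.03 and 0 called by limma (4, or 16%, with an unadjusted p below 0.05, beside 7.88% of all genes). PRKACB, a catalytic subunit of protein kinase A, read 1308 and 1259 in MRV, 709 and 673 in MR, and 1359 and 701 in NC, so the NC arrays spanned both levels. PDE3A, a phosphodiesterase that degrades cyclic AMP, read 327 and 447 in MRV, 216 and 251 in MR, and 205 and 306 in NC, with MRV above both groups. Its other probe set, below the filter, overlapped in every comparison. That probe set differed by 0.09 in MRV minus MR and by 0.10 in MRV minus NC. PPP1R3B, a glycogen-targeting subunit of the phosphatase, read 60.1 and 107 in MRV, 155 and 149 in MR, and 132 and 96.3 in NC. The log2 differences in MRV minus MR were 0.88, 0.68 and -0.79 for these genes (limma adjusted p from 0.626 to 0.648). PPP1CA, a catalytic subunit of the phosphatase, read 60.9 and 68.1 in MRV, 173 and 65.2 in MR, and 57.2 and 65.0 in NC, so its MR minus NC difference of 0.69 (limma adjusted p = 0.999955) rested on MR1. In MRV minus NC, HOMER2, CAMK1D and PDE3A differed by -0.55, 0.59 and 0.58 on the log2 scale (limma adjusted p = 0.904 each).

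Of the pump and release genes beside ATP2A2 and SLN, 12 were tested, 5 above and 7 below 0 in MRV minus MR and 8 above and 4 below 0 in MR minus NC, with 0 called by limma and 0 with an unadjusted p below 0.05. CASQ2, the calcium-binding protein inside the store, read 1474 and 1376 in MRV, 2716 and 1688 in MR, and 1972 and 1233 in NC, lower in MRV than in MR without overlap (log2 difference -0.58, SE 0.30, limma adjusted p = 0.741). RYR2, the release channel, read 3124 and 2900.1 in MRV, 4786 and 3343 in MR, and 4251 and 3411 in NC, and its 2 dimmer probe sets had the opposite sign in MRV minus MR. In the surface membrane list of 5 tested genes, CACNA2D1, a calcium channel subunit, read 219 and 220.3 in MRV, 61.0 and 183 in MR, and 61.5 and 337 in NC, and its limma adjusted p in MRV minus MR was 0.816. The 6 tested mitochondrial genes lay between -0.45 and 0.09 in MRV minus MR.

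The genes whose arrays ran most like each of the 6 were taken by the Pearson coefficient of log2(intensity + 16) over the 6 arrays against 5407 other genes. With 6 arrays in 3 groups many genes reach a high coefficient: 91 were above 0.9 for RCAN1, 58 for S100A1 and 144 for ORAI1. RCAN1 ran most like NDUFAF2 (0.993), IFT27 (0.986) and NPC1 (0.985). S100A1 ran most like ALDH2 (0.992), HIGD1B (0.988) and LOC100517502 (0.985). ALDH2, mitochondrial aldehyde dehydrogenase, read 150 and 240 in MRV, 409 and 330 in MR, and 170 and 211 in NC. PPP1R1A ran most like OCLN (0.999), PMS1 (0.973) and PMPCB (0.969), and ORAI1 most like CMPK1 (0.986), SPCS1 (0.984) and AKIRIN2 (0.984). SLN ran most like WDFY3 (0.989), TMED4 (0.988) and EIF3L (0.984), and ATP2A2 most like NEIL1 (0.987), ALKBH4 (0.975) and ADSSL1 (0.967).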

How the data were processed

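RNA of 6 left atria was hybridised to porcine Affymetrix arrays, 1 per animal. The authors deposited linear intensity values, 1 for each probe set on each array, already normalized between arrays, as the values themselves show. MAS5 and RMA are both named per the submitters' processing notes, and the sources used here do not say which made the intensities. Groups and replicate numbers came from the sample titles. The table held 24123 probe sets, 124 of them controls. Symbols came from the platform annotation, in which 10069 probe sets had 1 symbol, 198 had several and 13732 had none. The annotation's gene ID matched the same symbol in RefSeq's Sscrofa11.1 table for all 6 genes. No sequence or coordinate is given, since the annotation names no build.

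Values were tested as log2(intensity + 16), a scale that understates changes at low intensity. The filter kept the 14400 probe sets whose mean reached the 40th percentile, 61.4 units. Group means were fitted to all 6 arrays by lmFit and eBayes (limma 3.58.1, R 4.3.3), with 3 residual and 2.78 prior degrees of freedom. Benjamini-Hochberg adjustment of the p-values ran over all tested probe sets at a threshold of 0.05. Standard errors are the moderated ones. A gene in a list is represented by its brightest probe set. The fit was tested on simulated data.

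The 6 genes and the lists were chosen with earlier results of these data known. Named genes were all 6 members, every called gene of a list, and otherwise up to 3 genes per list and comparison by smallest p among those that differed by 0.5 or more on the log2 scale without overlap, with 3 genes most like each member. PLN, RYR2, PPP3CA, PPP3CB, RCAN3, STIM2, ORAI3, S100B, S100A10, PPP3CC, LMCD1, CIB1, CKM, TNNI1, TNNI2, TNNT1 and ALDH2 were added for their role or after their values were seen. Marker lists were summed over intensities of the brightest probe sets. Those not named in the report were also summed, and their sums are given in the closing section. Alternatives were 2 pseudocounts, 2 filters, 2 normalizations, an intensity trend, 2 covariates, a replicate block, fits of 2 groups, the mean of all probe sets, and each array left out.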

Additional observations from a re-analysis of the deposited data

How the results depend on the processing

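Of 276 recomputed differences of the 6 genes, 261 moved by less than the spread between replicates and 13 changed sign, all of them among differences under 0.5. Many of these could not move beyond that spread. Both filters, the intensity trend, the replicate block and the fits of 2 groups leave a difference of group means as it was. Leaving out 1 array shifts a mean of 2 arrays by no more than that spread. The count of 261 is therefore no measure of steadiness. No difference of at least 0.5 changed sign. In each of these the arrays of the groups compared did not overlap, so leaving out 1 array could not change the sign. RCAN1 stayed between -1.27 and -0.78 in MRV minus MR and between 0.48 and 0.97 in MR minus NC with an array left out, and S100A1 between -1.67 and -0.78 and between 0.87 and 1.51. S100A1 in MRV minus NC then ranged from -0.48 to 0.41. In MRV minus MR, S100A1 shrank from -1.22 to -0.76 with the actin ratio as a covariate. With the 28S control as a covariate, S100A1 widened to -1.53 in the same comparison. Both shifts were smaller than its spread between replicates, 0.52, which was wide. The differences that moved beyond the spread were these. With the actin ratio as a covariate, MRV minus MR was -0.28 for SLN, -0.38 for PPP1R1A and -0.058 for ORAI1, and MRV minus NC was 0.060 for ATP2A2, -0.42 for SLN, -0.018 for ORAI1 and -0.39 for RCAN1. With the 28S control as a covariate, MRV minus NC was 0.036 for ATP2A2, -0.26 for SLN and -0.37 for RCAN1. For ATP2A2, MRV minus NC was -0.025 with quantile normalization and 0.046 with scaling to the 75th percentile, and the mean of its probe sets gave -0.12 in MR minus NC, -0.023 in MRV minus MR and -0.15 in MRV minus NC. The cause was not tested. The 1 probe set called in MR minus NC, ASNS, became 0 with a pseudocount of 1, no filter, either normalization, the intensity trend, the replicate block, either covariate or only 2 groups. MRV minus MR had 2 called with the replicate block and 1 with the 28S covariate, against 0. Same-numbered arrays deviated together by r = 0.34 in MR and NC, 0.02 in MRV and MR and 0.20 in MRV and NC across probe sets. The labels give these numbers no meaning beyond the count, so the block is not used for pairing.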

Other observations

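Markers of other cell types of the atrium were summed by array, to set beside the order of RCAN1, in which MR is highest and MRV lowest. The Schwann cell and neuron markers, 4 genes with a probe set, summed to 1094 and 1794 in MRV, 3013 and 2746 in MR, and 2044 and 2954 in NC, lower in MRV than in both other groups. UCHL1 made up most of that sum, and its MRV and NC arrays overlapped. Of the 4 genes, 3 were lower in MRV than in MR without overlap, and 1, STMN2, was lower in MRV than in NC. Among all tested probe sets these shares were 23.6% and 18.1%. SOX10 overlapped in both comparisons. The adipocyte markers, 10 genes, summed to 3359 and 3126 in MRV, 4758 and 4190 in MR, and 6275 and 4528 in NC. FABP4 and LPL made up most of that sum. The other 8 summed to 1154 and 936 in MRV, 1096 and 1015 in MR, and 2028 and 1197 in NC, with overlap between MRV and MR. Of the 8 adipocyte markers tested, LIPE was higher and SCD lower in MRV than in MR without overlap. Against NC, 3 of the 8 were lower in MR and 4 were lower in MRV without overlap, and 0 were higher in either. Among all tested probe sets, 12.5% were lower in MR than in NC and 18.1% lower in MRV than in NC. Skeletal and slow muscle markers, 9 genes, summed to 13289 and 13442 in MRV, 14449 and 14835 in MR, and 14125 and 14200 in NC.

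Working heart muscle markers, 10 genes, summed to 118723 and 115530 in MRV, 123610 and 120242 in MR, and 115322 and 120263 in NC. Of the 10, 2 were higher and 6 lower in MRV than in MR without overlap, beside 18.8% and 23.6% of all tested probe sets. In MR minus NC 3 were higher and 2 lower, beside 14.3% and 12.5%. In MRV minus NC 2 were higher and 3 lower, beside 15% and 18.1%. The atrial markers, 8 genes, summed to 62459 and 60864 in MRV, 58858 and 60569 in MR, and 58879 and 60369 in NC. Fibroblast markers, 8 genes, ranged from 7820 to 11594 over the arrays, endothelial markers, 7 genes, from 2895 to 3468, smooth muscle markers, 7 genes, from 15098 to 17971, leukocyte markers, 7 genes, from 1151 to 1534, and mesothelial markers, 4 genes, from 183 to 239. The part of these cells in the values of the 6 genes was not tested.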
